A study of Mus musculus with 32 samples.

Results

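The expression of 10 genes of T cells and natural killer (NK) cells was examined in the spinal cord of wildtype and G93A mice, across 8 groups of mice. The genes were taken by name, from a list drawn up with earlier results of these data known, and are 10 of the 42524 genes in the count table: the CD3 chains Cd3e, Cd3d and Cd3g, the co-receptors Cd4, Cd8a and Cd8b1, the cytotoxic granule genes Nkg7, Gzma and Gzmb, and the NK cell lectin-like receptor gene Klri1. All 10 names were found in the table through gene identifiers. RNA sequencing was done on the spinal cord of 32 mice, 4 in each group. WT mice were wildtype C57BL/6J littermates, and G93A mice were of strain B6-Tg(SOD1-G93A)1Gur/J, which carries the human SOD1 gene with the G93A mutation of familial ALS. In this transgene the human SOD1 promoter drives the mutant gene in many cell types, so T cells, NK cells and spinal cord cells can all carry it. Mice of each genotype were untreated or were given OKN007, a nitrone compound, in the drinking water, and were labelled 90 days or 155 days. The study describes these times as ages and gives a slightly later age for the first. The study describes a lower and a higher dose, with mice taken at these ages only at the higher one, at which it used female mice only. It does not say which of its cohorts was sequenced, so whether the OKN007 mice of 155 days were treated from before or from about the onset of disease is not known here.

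T cells recognise peptides on MHC molecules through a receptor that signals by way of the CD3 chains. The co-receptor CD4 binds MHC class II and marks helper cells, whereas CD8 is made of alpha and beta chains, binds MHC class I and marks most cytotoxic T cells. Cytotoxic T cells and NK cells kill by releasing granules that hold perforin and granzymes, and NK cells use lectin-like receptors encoded in a cluster of genes to read their targets. KLRI1 is an inhibitory receptor of this family that pairs with KLRE1. The healthy spinal cord holds few such cells, and T cells have been described in the cord of SOD1 mutant mice at late stages of disease.

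The depth was 19701722 to 30138257 counts per mouse, and the 10 genes together had 1202 of the 838761377 counts of all mice. A single count in a library corresponds to 0.0325 to 0.0467 CPM (counts per 1e6 counts of the library, its size scaled by the TMM method of edgeR), and a count of 0 allows a level of up to 3 counts, or 0.0976 to 0.14 CPM. These limits cover counting error only. Nkg7 had 24 counts in all and 0 in 19 of the 32 libraries, Cd3d 46 and 0 in 14, Cd8b1 46 and 0 in 13, Cd4 61 and 0 in 10, Cd3e 65 and 0 in 12, Gzmb 87 and 0 in 7, and Cd8a 124 and 0 in 7. Gzma had 179 counts, Cd3g 227 and Klri1 343, each with 0 in 2 libraries. In the G93A group of 155 days, untreated replicates 9 and 10 and OKN007 replicate 13 had a lower score of the caudal Hox genes (mean of log2(CPM + 1) over 6 genes, 0.556, 0.555 and 1.26) than the other 13 mice of that day. The score also went largely with genotype at that day, at 2.95 to 4.16 in WT and 0.555 to 2.99 in G93A mice. Fits with the score, or without these 3 libraries, can therefore separate position along the cord from genotype only in part. Since the caudal Hox genes mark the position along the cord, calls of the 10 genes that ended without these 3 libraries are named below. Calls of genes outside the 10 and calls between days are given without this check. At 155 days untreated replicate 12 and OKN007 replicate 15 of the G93A mice had the most counts of the liver gene Alb (139 and 83.8 CPM), and leaving both out ended no call of the genotype means of that day described here.

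Cd3g, Cd3d and Cd3e lie next to each other on chromosome 9, Cd8b1 and Cd8a next to each other on chromosome 6, Cd4 beside Lag3 and Klri1 between Klrc1 and Klri2 elsewhere on chromosome 6, Nkg7 on chromosome 7, Gzma beside Gzmk on chromosome 13 and Gzmb beside Gzmc on chromosome 14. The annotation places 1 antisense gene and 1 unconfirmed gene model on the same strand over Cd3e, and which counting program and strand setting made the deposited counts could not be settled. The promoter windows of RefSeq (build GRCm38.p6, 250 bases before to 50 after the start of the gene) held 8 of the 10 genes. They were searched on both strands for the RUNX core motif TGTGGT and the ETS core motif AGGAAG, named for families of transcription factors that act in lymphocytes, and whose matches do not overlap in these windows. The RUNX core stood in the windows of 3 of these 8 genes (Nkg7, Gzma and Gzmb) and in 16.8% of all 32851 windows, and the ETS core in 3 of 8 (Cd3e, Cd3d and Nkg7) and in 35.4% of all windows. A window is shown for 4 genes that the results below turn on: a CD3 chain, the CD8 alpha chain, the granule gene with both motifs, and Klri1. Capitals mark a motif on either strand. Neither motif was found in the windows of Cd8a, Klri1 and Cd3g.
Cd3e, chr9:45009562-45009861, minus strand: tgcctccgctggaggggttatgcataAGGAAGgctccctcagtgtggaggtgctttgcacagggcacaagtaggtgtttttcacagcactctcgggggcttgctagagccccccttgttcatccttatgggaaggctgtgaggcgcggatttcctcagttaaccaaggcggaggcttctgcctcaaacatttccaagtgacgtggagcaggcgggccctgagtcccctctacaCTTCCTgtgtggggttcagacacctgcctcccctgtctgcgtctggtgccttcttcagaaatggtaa
Cd8a, chr6:71373177-71373476, plus strand: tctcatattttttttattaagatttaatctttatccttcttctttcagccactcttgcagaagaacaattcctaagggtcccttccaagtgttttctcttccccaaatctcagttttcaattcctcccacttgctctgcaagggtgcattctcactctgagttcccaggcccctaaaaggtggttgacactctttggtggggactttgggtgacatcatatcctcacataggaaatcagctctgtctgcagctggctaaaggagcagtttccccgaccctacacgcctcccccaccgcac
Nkg7, chr7:43436888-43437187, plus strand: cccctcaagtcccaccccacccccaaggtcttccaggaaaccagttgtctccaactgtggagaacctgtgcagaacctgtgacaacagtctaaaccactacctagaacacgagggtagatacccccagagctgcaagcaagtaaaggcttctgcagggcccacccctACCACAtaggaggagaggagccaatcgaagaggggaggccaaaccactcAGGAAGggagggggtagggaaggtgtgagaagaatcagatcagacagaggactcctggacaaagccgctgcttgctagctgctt
Klri1, chr6:129717083-129717382, minus strand: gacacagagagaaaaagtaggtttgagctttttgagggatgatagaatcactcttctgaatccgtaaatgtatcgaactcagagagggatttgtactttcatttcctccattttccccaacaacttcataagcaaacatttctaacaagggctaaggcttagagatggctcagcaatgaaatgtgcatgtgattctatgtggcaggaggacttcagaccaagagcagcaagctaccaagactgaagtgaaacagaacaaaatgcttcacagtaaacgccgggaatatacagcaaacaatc

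At 155 days, Cd3g and Cd8a were higher in G93A than in WT mice and Klri1 was lower, with the untreated and OKN007 contrasts averaged (8 mice against 8). Cd3e, Cd8b1 and Nkg7 were also called higher, but all 3 calls ended when the caudal Hox score was a term of the fit (adjusted p = 0.198, 0.487 and 0.0729) or when the 3 libraries of low Hox score were left out. Klri1 had 20 reads in G93A and 154 in WT mice, a ratio of 0.126 (95% counting interval 0.0751 to 0.202). Cd8a had 88 reads in G93A and 7 in WT mice, and Cd3g 133 against 26. Cd4, Cd3d, Gzma and Gzmb did not pass the test. The comparison asks whether genes of these cells change with the mutant transgene. In bulk RNA, more (or fewer) cells of a type cannot be told apart from more (or less) RNA per cell. Which cells the reads of the 10 genes came from was not tested either. Only Cd3g, Cd8a and Klri1 had enough reads to pass the filter on low counts at 155 days, Cd3g and Cd8a through the G93A mice alone and Klri1 through the WT mice alone, so that their having passed already reflects the difference. All 3 were called in the filtered fits, where 54.7% of genes were in the mean, 39.5% without and 41.5% with OKN007, and nothing is read from that. The interaction, the fold changes with OKN007, Klri1 at 90 days and genes of other lists are given below from the filtered fits, unless marked. In the paragraphs on single genes of the 10, genotype values at 155 days are therefore from the edgeR quasi-likelihood fit with no filter, over 40747 genes. There, 6 of the 10 genes were called at a Benjamini-Hochberg adjusted p under 0.05, where 24.0% of all genes were, with 5 of 10 higher (13% of all genes) and 1 of 10 lower (11%). The median log2 fold change over the 10 genes was 1.95, where that over all 40747 genes was -0.018.

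**Figure D1:**
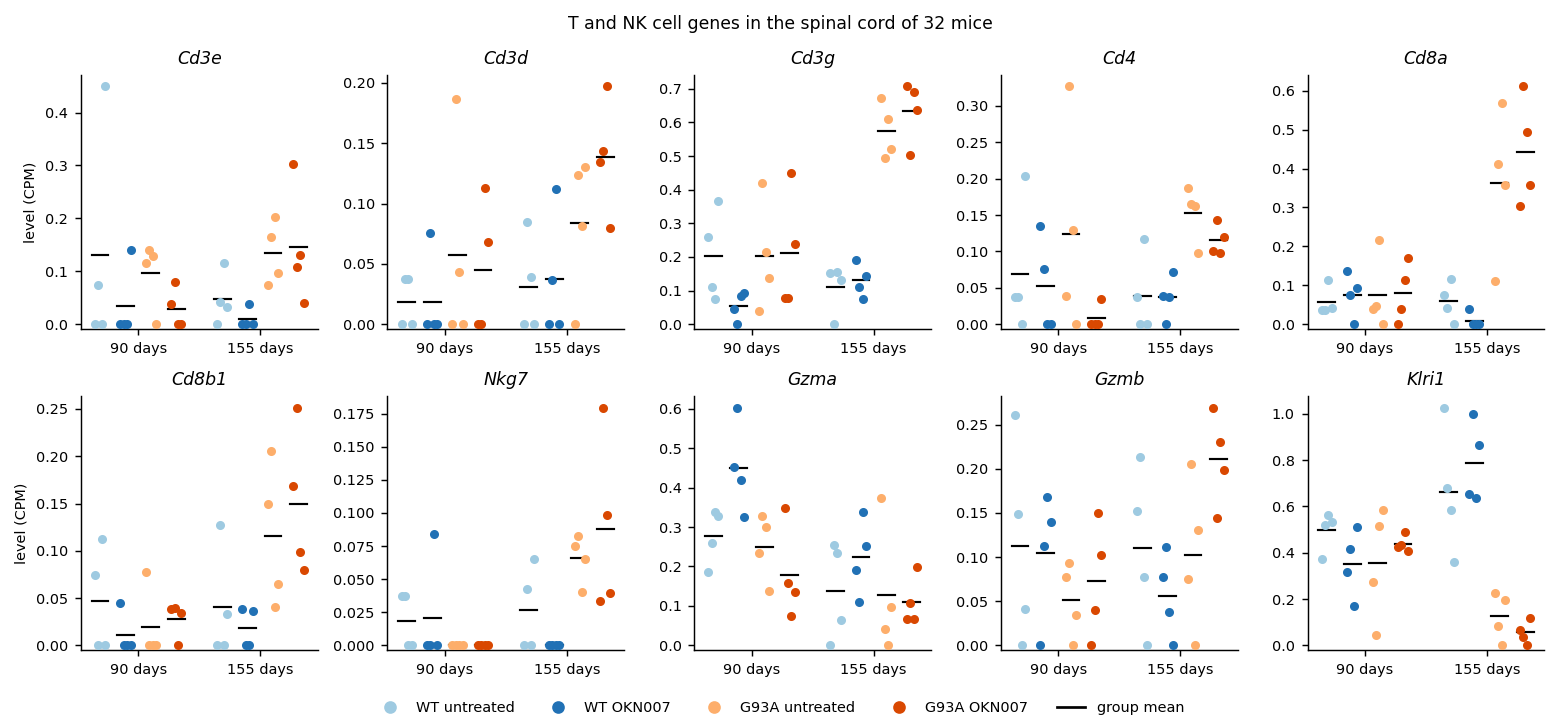
Level (CPM, linear axis from 0) of each of the 10 genes in each mouse, by genotype, treatment and day; points are mice, bars are means of 4 mice, and each panel has its own scale. At 155 days all 8 G93A mice lay above all 8 WT mice in Cd3g (12 to 21 counts against 0 to 5) and below them in Klri1 (0 to 6 against 11 to 27).

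The CD3 chains carry the signal of the T cell receptor into the cell. At 155 days Cd3g had 4, 0, 4 and 4 counts in untreated WT mice, 5, 3, 2 and 4 in WT mice given OKN007, 18, 12, 15 and 16 in untreated G93A mice, and 21, 14, 21 and 16 in G93A mice given OKN007. The genotypes did not overlap in either treatment. Without OKN007 the mean level was 0.574 ± 0.083 CPM in the G93A and 0.11 ± 0.074 CPM in the WT group (SD, n = 4), a log2 fold change of 2.36 (SE 0.53, adjusted p = 0.000349). With OKN007 it was 0.634 ± 0.092 against 0.131 ± 0.05 CPM (SD, n = 4), a log2 fold change of 2.31 (SE 0.51, adjusted p = 0.000262).

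Cd3e had 0, 1, 3 and 1 counts in untreated WT, 0, 0, 1 and 0 in OKN007 WT, 2, 4, 5 and 3 in untreated G93A and 9, 3, 4 and 1 in OKN007 G93A mice at 155 days. Its lowest G93A mouse lay under the highest untreated WT mouse. In sum 31 reads in 8 G93A mice stood against 6 in 8 WT mice, a ratio of 5.03 (95% counting interval 2.07 to 14.7), with a log2 fold change of 2.48 (adjusted p = 0.00753, no filter). Cd3d had 0, 2, 1 and 0 counts in untreated WT, 0, 1, 3 and 0 in OKN007 WT, 0, 3, 2 and 4 in untreated G93A and 4, 4, 6 and 2 in OKN007 G93A mice. Its sums of 25 and 7 reads gave a ratio of 3.48 (95% counting interval 1.46 to 9.52) and a log2 fold change of 1.64 that missed the threshold (adjusted p = 0.118, no filter). Since the interval leaves out the spread between mice, it is not a test of the genotypes.

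The CD8 alpha chain gene Cd8a had 2, 1, 3 and 0 counts in untreated WT mice, 1, 0, 0 and 0 in WT mice given OKN007, 3, 10, 14 and 11 in untreated G93A mice, and 9, 17, 15 and 9 in G93A mice given OKN007 at 155 days. Untreated G93A replicate 9, with 3 counts, was level with the highest untreated WT count, and the OKN007 groups did not overlap. Without OKN007 the mean was 0.363 ± 0.189 CPM in the G93A and 0.0588 ± 0.05 CPM in the WT group (SD, n = 4), a log2 fold change of 2.61 (SE 0.71, adjusted p = 0.00379). Given OKN007, G93A mice had 50 reads and WT mice 1, a ratio of 47.6 (95% counting interval 8.15 to 1915), and the difference was called (adjusted p = 3.83e-06). With both treatments averaged the log2 fold change was 3.83 (SE 0.57, adjusted p = 4.17e-08).

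Cd8b1, the beta chain that pairs with it on most cytotoxic T cells, had 0, 3, 0 and 1 counts in untreated WT, 1, 0, 0 and 1 in OKN007 WT, 4, 5, 1 and 2 in untreated G93A and 5, 7, 3 and 2 in OKN007 G93A mice. The sums of 29 and 6 reads gave a ratio of 4.71 (95% counting interval 1.92 to 13.9) and a log2 fold change of 2.15 (adjusted p = 0.0233, no filter). Cd4, the co-receptor of helper T cells, which some macrophages also express, had 1, 0, 3 and 0 counts in untreated WT, 1, 0, 1 and 2 in OKN007 WT, 5, 4, 4 and 3 in untreated G93A and 3, 4, 3 and 3 in OKN007 G93A mice. Its 29 and 8 reads gave a ratio of 3.53 (95% counting interval 1.57 to 8.93), and its log2 fold change of 1.75 was just outside the threshold (adjusted p = 0.0529, no filter). The 8 G93A mice had 3 to 5 counts of Cd4 and the 8 WT mice 0 to 3.

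Nkg7 encodes a protein of the cytotoxic granule membrane. At 155 days it had 0, 1, 0 and 2 counts in untreated WT, 0 in each OKN007 WT, 2, 2, 1 and 2 in untreated G93A and 1, 5, 3 and 1 in OKN007 G93A mice. The sums of 17 and 3 reads gave a ratio of 5.52 (95% counting interval 1.6 to 29.4) and a log2 fold change of 2.76 (adjusted p = 0.0201, no filter). Given OKN007, the 10 reads of G93A mice against 0 in WT mice were 3.17-fold over a floor of 3 counts in the WT group. This leaves out the counting error of the 10 reads, so it is not a lower limit.

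The granzymes are serine proteases that enter the target cell, and neither was called. Gzma had 0, 6, 6 and 2 counts in untreated WT, 5, 3, 9 and 7 in OKN007 WT, 10, 1, 0 and 3 in untreated G93A and 2, 3, 2 and 5 in OKN007 G93A mice at 155 days, and the groups overlapped. The 26 reads of G93A and 38 of WT mice gave a ratio of 0.666 (95% counting interval 0.388 to 1.13) and a log2 fold change of -0.48 (adjusted p = 0.669, no filter). Gzmb had 4, 5, 2 and 0 counts in untreated WT, 2, 3, 1 and 0 in OKN007 WT, 2, 5, 0 and 4 in untreated G93A and 8, 4, 7 and 5 in OKN007 G93A mice. All 4 OKN007 G93A mice lay above all 4 OKN007 WT mice, and the untreated groups overlapped. Its averaged log2 fold change was 0.94 (adjusted p = 0.312, no filter).

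Klri1 was the gene of the 10 with the most reads and the only one called lower. At 155 days it had 27, 16, 15 and 11 counts in untreated WT mice, 17, 27, 17 and 24 in WT mice given OKN007, 6, 2, 0 and 6 in untreated G93A mice, and 2, 1, 0 and 3 in G93A mice given OKN007. The genotypes did not overlap in either treatment. Without OKN007 the mean was 0.125 ± 0.104 CPM in the G93A and 0.663 ± 0.278 CPM in the WT group (SD, n = 4), a log2 fold change of -2.25 (SE 0.53, adjusted p = 0.000726). With OKN007 it was 0.0557 ± 0.051 against 0.788 ± 0.174 CPM (SD, n = 4), a log2 fold change of -3.71 (SE 0.60, adjusted p = 5.72e-07). With both averaged the log2 fold change was -2.98 (SE 0.40, adjusted p = 2.30e-09), and 8 of 8 G93A mice lay under the lowest WT mouse.

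Genes near Klri1 in the receptor cluster were examined beside it, and none of those named here was called lower. Klre1, whose protein pairs with KLRI1, had 0, 1, 2 and 2 counts in untreated WT, 2, 2, 3 and 0 in OKN007 WT, 0, 0, 1 and 4 in untreated G93A and 2, 5, 7 and 4 in OKN007 G93A mice at 155 days. Its sums were 23 reads in G93A and 12 in WT mice, a ratio of 1.87 (95% counting interval 0.891 to 4.11). Klri2, the neighbour of Klri1, had 7 reads in G93A and 0 in WT mice, and was called in the fit with no filter (adjusted p = 0.047). The 7 reads were 2.27-fold over a floor of 3 counts in the WT group, with their own counting error left out. Klrb1c, which encodes the NK cell antigen NK1.1, had 73 reads in G93A and 23 in WT mice and was also called higher (log2 fold change 1.62, adjusted p = 0.00322, no filter). How reads were shared among similar genes of this cluster is not stated in the sources used here, so the count of any single one is uncertain to that extent. Whether the Klri1 reads came from NK cells or from other cells of the cord was not tested.

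**Figure D2:**
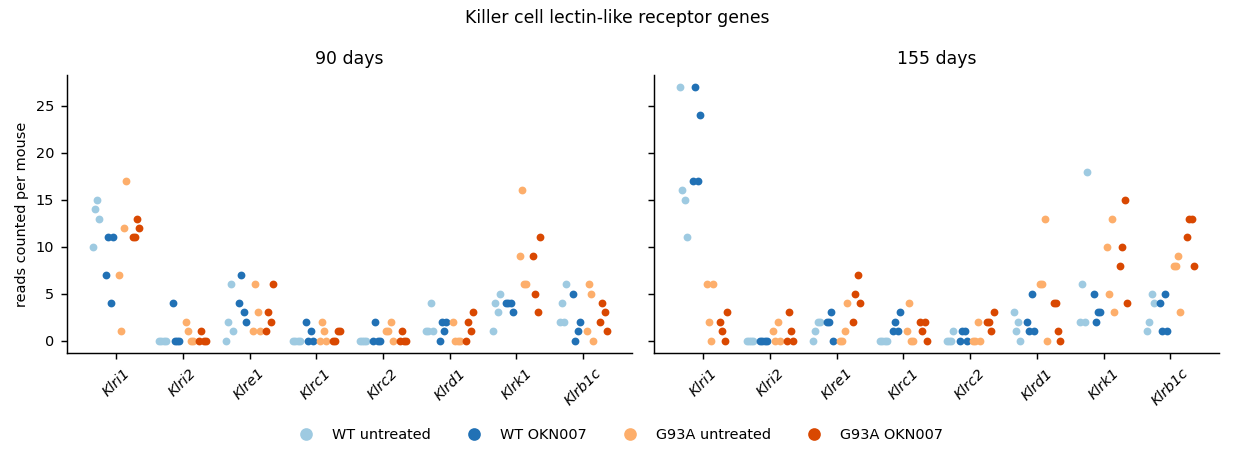
Reads counted per mouse (linear axis from 0) for Klri1 and 7 other killer cell lectin-like receptor genes at 90 and 155 days; points are mice, coloured by genotype and treatment. Klri1 had 11 to 27 counts in the 8 WT mice and 0 to 6 in the 8 G93A mice at 155 days, whereas Klre1 had 0 to 3 and 0 to 7.

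The calls of Cd3e, Cd8b1 and Nkg7 at 155 days rested on few reads. When the Hox score was added to the fit with no filter, Cd3e (log2 fold change 2.10, adjusted p = 0.198), Cd8b1 (1.54, adjusted p = 0.487) and Nkg7 (3.39, adjusted p = 0.0729) missed the threshold, and without the 3 libraries of low Hox score they did so too (2.25, 1.61 and 2.76, adjusted p = 0.0636, 0.287 and 0.0586). Cd3g, Cd8a and Klri1 were called in each of these fits, at log2 fold changes of 2.30, 4.09 and -3.18 without those 3 libraries. Without OKN007 G93A replicate 14, which had 7 counts of Cd8b1 and 5 of Nkg7, neither of these genes was called (lowest adjusted p 0.0656).

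**Figure D3:**
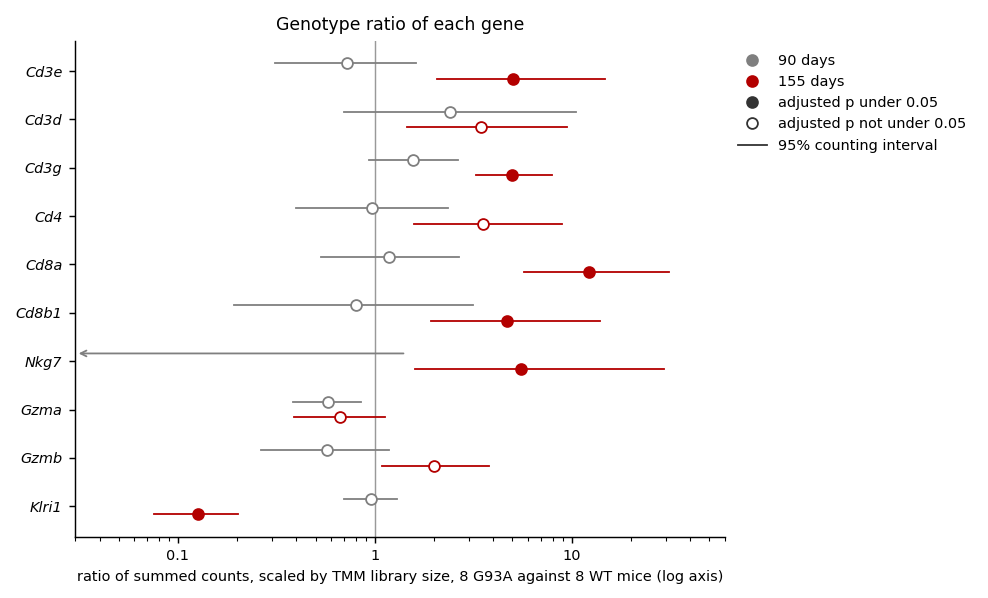
Ratio of summed counts in 8 G93A to 8 WT mice (log axis, scaled by TMM library size) for each gene at 90 days (grey) and 155 days (red), with lines for 95% counting intervals; a filled point has an adjusted p under 0.05 in the edgeR fit with no filter on low counts, with treatments averaged. At 155 days 6 points are filled, from 0.126 for Klri1 to 12.2 for Cd8a, and at 90 days none is; the arrow stands for Nkg7 at 90 days, with 0 reads in G93A and 4 in WT mice.

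Within single treatments, 3 of 10 genes (Cd3g, Cd8a and Klri1) were called between untreated genotypes in the fit with no filter, where 16.6% of all genes were, and 5 of 10 (also Cd3e and Nkg7) between mice given OKN007, where 17.6% were. Cd3e (adjusted p = 0.0203) and Nkg7 (adjusted p = 0.0265) were called in the latter against 1 and 0 reads in the WT mice. The Cd3e call ended with the Hox score in that fit (adjusted p = 0.181) and without the 3 libraries of low score (adjusted p = 0.169). That of Nkg7 held in both (adjusted p = 0.0468 and 0.0335), but ended without both libraries of most Alb (adjusted p = 0.06). In untreated mice the log2 fold changes of Cd3e and Nkg7 were 1.45 (adjusted p = 0.395) and 1.17 (adjusted p = 0.577). Between untreated mice 1 of 10 genes was higher without overlap (7.57% of all genes) and 1 lower (8.6%). Between mice given OKN007, 7 of 10 were higher without overlap, namely Cd3e, Cd3g, Cd4, Cd8a, Cd8b1, Nkg7 and Gzmb, where 9.97% of all genes were, and 1 was lower (12.1%). For Cd3e the nearest mice of the 2 groups had 1 count each (0.0398 and 0.0375 CPM), so that library size alone kept them apart. Over both treatments together, Cd3g was higher (5.79% of all genes) and Klri1 lower (5.51%) in every G93A mouse than in any WT mouse.

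The change with OKN007 itself asks whether the compound alters these genes. None of the 10 genes was called in G93A or in WT mice at either day, with or without the filter. With no filter 0.0417% of all genes were called in G93A and 0.0245% in WT mice at 155 days, and 0.0191% and 0.0334% at 90 days. In the filtered fits, 0 genes (0.0%) of any kind were called by edgeR in these 4 comparisons, with 755 in G93A and 549 in WT mice at an unadjusted p under 0.05 at 155 days and 1050 and 769 at 90 days, and DESeq2 called 0, 2, 0 and 0. In G93A mice of 155 days the log2 fold change of OKN007 against untreated was 0.30 for Cd8a (95% interval -0.59 to 1.19), 0.15 for Cd3g (-0.50 to 0.80) and -1.22 for Klri1 (-2.76 to 0.33). These intervals include a log2 change of 1 for Cd8a and of -1 for Klri1. The genotype differences in the 2 treatments were also compared directly. This interaction was 2.45 for Cd8a (unadjusted p = 0.064), -1.45 for Klri1 (unadjusted p = 0.12) and -0.04 for Cd3g (unadjusted p = 0.968), with every adjusted p at 1 in edgeR, so the larger values with OKN007 were not shown to differ from those without it.

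At 90 days edgeR called 0 of the 10 genes between genotypes, and with no filter 0.262% of all genes were called in the mean, 0.093% without and 0.0572% with OKN007. In the mean 1 of the 10, Nkg7, had an unadjusted p under 0.05. Klri1, the only one past the filter at that day, had 10, 14, 15 and 13 counts in untreated WT, 7, 11, 4 and 11 in OKN007 WT, 7, 1, 12 and 17 in untreated G93A and 11, 11, 13 and 12 in OKN007 G93A mice. The groups overlapped, and its averaged log2 fold change was -0.06 (95% interval -0.70 to 0.58, adjusted p = 0.987), where 0.0265% of all genes past the filter were called. Cd8a had 1, 1, 3 and 1 counts in untreated WT, 3, 2, 0 and 2 in OKN007 WT, 1, 1, 5 and 0 in untreated G93A and 0, 1, 3 and 5 in OKN007 G93A mice, that is 16 reads in G93A and 13 in WT mice. Cd3g had 7, 3, 2 and 9 counts in untreated WT, 1, 0, 2 and 2 in OKN007 WT, 1, 9, 5 and 4 in untreated G93A and 2, 2, 12 and 7 in OKN007 G93A mice. These ranges overlap, and 42 reads in G93A stood against 26 in WT mice, a ratio of 1.56 (95% counting interval 0.932 to 2.64).

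Gzma was at its highest at 90 days, with 5, 7, 9 and 8 counts in untreated WT, 10, 16, 10 and 7 in OKN007 WT, 6, 7, 7 and 4 in untreated G93A and 9, 4, 2 and 4 in OKN007 G93A mice. The counting interval of its ratio, 0.575 (0.385 to 0.851), lay under 1 for 43 against 72 reads, but the gene was not called. That interval leaves out the spread between mice, so it is not a test of the genotypes. G93A and WT mice had 24 and 29 reads without OKN007, and 19 and 43 with it. Nkg7 had 0 reads in all 8 G93A mice of 90 days and 4 in the 8 WT mice. Cd3e, Cd3d, Cd4, Cd8b1 and Gzmb had 0 to 11 counts in a mouse of this day, with 12 and 16, 10 and 4, 12 and 12, 5 and 6, and 13 and 22 reads in G93A and WT mice. The reads of the CD3 chains were uneven among mice of this day: untreated WT replicate 4 had 20 of them, untreated G93A replicate 10 had 16 and OKN007 G93A replicate 15 had 15, where the lowest mouse had 1. Ubash3a, a T cell signalling gene, had 36, 42 and 1 counts in these 3 mice, and 16 and 14 in OKN007 WT replicate 7 and OKN007 G93A replicate 13, which had 2 and 3 reads of the CD3 chains. Untreated G93A replicate 11 and OKN007 G93A replicate 16, with 9 reads of the CD3 chains each, had 26 and 1 counts of Ubash3a.

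The genotype difference at 155 days was then compared with that at 90 days in one fit of 32 mice with no filter. It was larger at 155 days for Cd8a by 3.55 on the log2 scale (SE 0.97, adjusted p = 0.00626) and more negative for Klri1, at -2.97 (SE 0.56, adjusted p = 6.48e-05). Cd3g (1.35, SE 0.71, adjusted p = 0.244) and Gzma (0.21, SE 0.73, adjusted p = 1) did not pass. In total, 3 of the 10 genes were called, where 15.7% of all genes were. The third was Nkg7 (adjusted p = 0.00672), whose fitted value is no measure of size because the G93A mice of 90 days had 0 reads. These calls between days were not repeated without the 3 libraries of low Hox score. The averaged call of Nkg7 at 155 days ended without them (edgeR, no filter, adjusted p = 0.0586). In the filtered fit 2 of the 4 genes that passed, Cd8a and Klri1, were called, where 37.5% of 19829 genes were. Cd8a passed that filter through the G93A mice of 155 days alone, so nothing is read from this count. The median log2 value of all genes in the fit with no filter was -0.13.

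Among the 8 groups, the order of the mean level of Klri1 ran from WT OKN007 at 155 days (0.788 CPM) and untreated WT at 155 days (0.663) through the 4 groups of 90 days (0.497, 0.44, 0.355 and 0.353) to untreated G93A (0.125) and OKN007 G93A mice (0.0557) at 155 days. The counts of each pair of neighbours in this order overlapped, also at the step from WT OKN007 mice of 90 days (4 to 11 counts) to untreated G93A mice of 155 days (0 to 6). Cd3g was highest in the G93A groups of 155 days (0.634 and 0.574 CPM), which did not differ beyond their spread, and the other 6 groups lay between 0.0556 and 0.211 CPM. Cd8a had the same 2 groups on top (0.441 and 0.363 CPM), with the other 6 between 0.00962 and 0.0806 CPM. Per kilobase of exon, which allows levels of different genes to be compared, Klri1 was the highest of the 10 genes in untreated WT mice of 155 days (0.791 CPM per kilobase), before Gzma (0.138). In untreated G93A mice of that day Cd3g was the highest (0.176), then Klri1 (0.15) and Gzma (0.127).

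Genes whose deviations from the group means were most like those of each gene, over 32 mice and 19829 genes, were Rbsn, Pcdha3 and Epha4 for Klri1 (Pearson r 0.78, 0.77 and 0.76), Gm37716, Myo5c and Slc26a8 for Cd3g (0.75, 0.72 and 0.69), Mgst1, Gm13391 and C230035I16Rik for Cd8a (0.74, 0.74 and 0.71), and Tmem97, mt-Te and Acot7 for Gzma (0.69, 0.67 and 0.67). These are the highest of 19829 correlations, of points that share library depth, and are a description. With 2 mice left out, r was 0.50 to 0.53 for the genes most like Cd8a. For those most like Klri1, Cd3g and Gzma it was then 0.56 to 0.73. No T or NK cell gene was among the 3 most alike genes of any of the 4.

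Other genes of these cells were taken from lists. Of 27 further genes of the T cell receptor and lineage, 14 passed the filter at 155 days, and 5 rose and 0 fell in G93A mice with treatments averaged, where 28.8% of all genes past the filter rose and 25.8% fell. With no filter 7 of 27 rose, where 13% of all genes did, and the list's median log2 fold change was 0.54. Pdcd1, which encodes the inhibitory receptor PD-1, had 5 to 7 counts in untreated WT, 4 to 7 in OKN007 WT, 83 to 151 in untreated G93A and 110 to 138 in OKN007 G93A mice (log2 fold change 4.38, SE 0.20, adjusted p = 1.10e-12). In these G93A mice the CD3 chains together had only 19 to 34 reads, and which cells the Pdcd1 reads came from was not tested. Cd28, the costimulatory receptor (3.19, SE 0.55, adjusted p = 7.41e-05), and Ms4a4b (1.60, SE 0.30, adjusted p = 0.000197) followed. These values are from the filtered fit, and a gene could pass the filter through the G93A mice alone. Trac, the constant region of the T cell receptor alpha chain, had 43 to 86 counts in every library of 155 days, in both genotypes, and was not called (0.24, SE 0.14, adjusted p = 0.169).

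Of 20 further NK and cytotoxic genes only 4 passed the filter, and 3 rose, where 28.8% of all genes past the filter did. The 3 were Ccl5, a chemokine that draws T cells (3.78, SE 0.43, adjusted p = 5.51e-07), Ctsw, a protease of cytotoxic cells (1.90, SE 0.34, adjusted p = 0.000112), and Il2rb, a receptor chain for interleukins 2 and 15 (1.53, SE 0.44, adjusted p = 0.00633). These 4 had to reach the filter in some group, so their having passed can already reflect the difference, and nothing is read from that count. With no filter 6 of 20 rose, where 13% of all genes did, and 0 fell, with a median of 1.17. Ifng had 0 counts in all 8 G93A and all 4 untreated WT mice of 155 days and 2 in the 4 WT mice given OKN007, and the perforin gene Prf1 had 0 to 5 counts in these mice and 0 to 3 in WT mice. At 90 days 0 of the 27 and 0 of the 20 genes were called, with or without the filter, by edgeR. Those counts are of the mean of both treatments. Without the filter, unadjusted p-values below 0.05 were found there for 1 gene of either list, and for 2 genes of the first and 3 of the second between mice given OKN007.

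Genes of the ligands of the co-receptors were also measured at 155 days. All 6 MHC class I genes rose, where 28.8% of all genes past the filter did, with B2m (2.37, SE 0.11, adjusted p = 1.83e-12), Tapbp (1.04, SE 0.06, adjusted p = 1.12e-10) and H2-K1 (1.96, SE 0.13, adjusted p = 2.45e-10) of smallest p. Of 7 MHC class II genes, 6 passed the filter and all 6 rose, led by Cd74 (3.45, SE 0.16, adjusted p = 2.41e-12), H2-Ab1 (2.94, SE 0.21, adjusted p = 9.85e-10) and H2-DMb1 (2.04, SE 0.15, adjusted p = 1.60e-09). Of 6 serine protease inhibitors related to those that block granzymes, 3 of the 5 tested rose, where 28.8% of all genes past the filter did: Serpina3n, an inhibitor that astrocytes also make (4.87, SE 0.19, adjusted p = 1.77e-13), Serpinb9, which inhibits granzyme B (0.22, SE 0.07, adjusted p = 0.011), and Serpinb6b (0.35, SE 0.13, adjusted p = 0.0294). With no filter only Serpina3n was called among the 6.

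**Figure D4:**
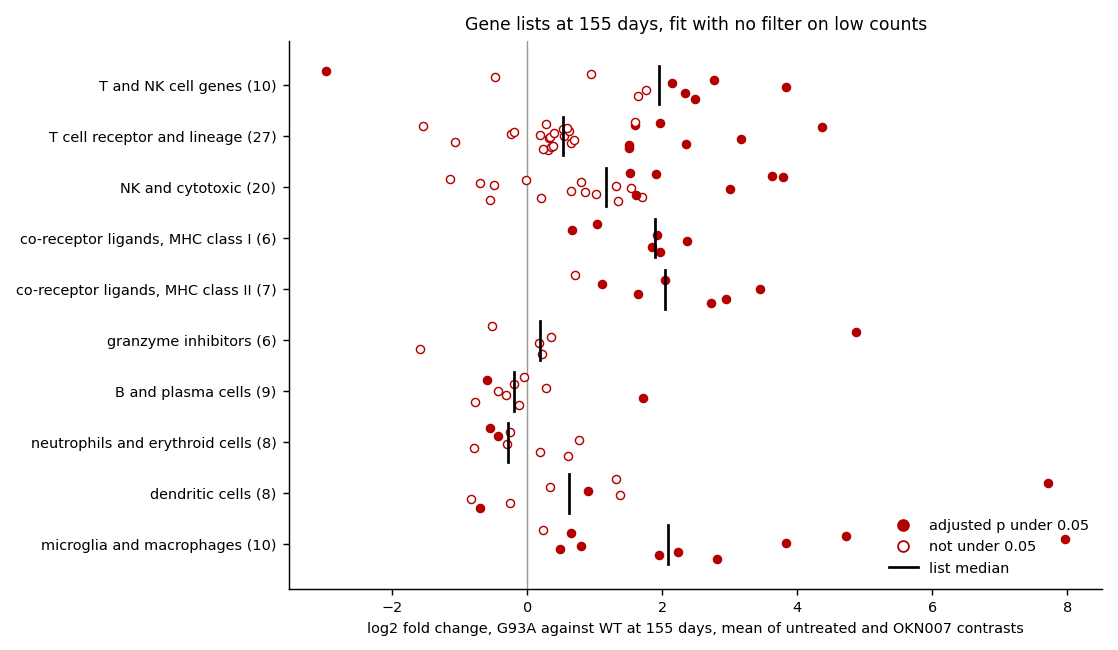
Log2 fold change of G93A against WT at 155 days (mean of untreated and OKN007 contrasts, edgeR fit with no filter) for each gene of the 10 lists, with the number of genes in brackets; points are genes, filled where the adjusted p is under 0.05, and bars are list medians. The medians are 1.95 for the 10 T and NK cell genes, 0.54 for the T cell list, 1.17 for the NK list and -0.19 for B and plasma cells.

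Markers of other cells were measured beside these. Of 10 microglia and macrophage genes 9 rose at 155 days, again beside 28.8% of all genes past the filter, led by Cst7 (7.98), Cd68 (4.73) and Trem2 (3.83), and their summed level went from 126 to 163 CPM in WT to 512 to 842 CPM in G93A mice. Of 8 dendritic cell genes, 4 passed the filter, with Itgax (7.72), which microglia can also express, and Siglech (0.90) higher and Flt3 (-0.69) and Zbtb46 lower. Which cells the reads of Itgax and Siglech came from was not tested. Of 9 B and plasma cell genes 3 passed, with Ighm lower (-0.59, adjusted p = 6.94e-06) and Pax5 and Jchain not called, and with no filter Cd79b was higher (1.71, adjusted p = 0.0102). Of 8 neutrophil and erythroid genes 4 passed and 0 were called by edgeR, with Hbb-bs (-0.43), Alas2 (-0.55) and Hba-a1 (-0.26) of smallest p, the first 2 of which had unadjusted p-values below 0.05. With no filter Hbb-bs and Alas2, genes of red blood cells, were lower (adjusted p = 0.000719 and 0.00755), and none of the 8 was higher. Among 9 genes of spinal cord cells, the astrocyte genes Gfap (2.53) and Aqp4 (1.41) rose and the neuronal gene Rbfox3 (-0.54) fell, and all 6 caudal Hox genes were lower, with Hoxc11 (-2.36), Hoxd11 (-2.43) and Hoxc10 (-1.37) of smallest p. The part of these cells and of the position along the cord in the values of the 10 genes was not tested beyond the Hox covariate and the libraries left out above.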

How the data were processed

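Raw counts of RNA reads per gene from 32 mice were used as the authors deposited them, with no normalization. The study's methods name Trimmomatic, STAR, HTSeq, GRCm38 and the GENCODE M10 annotation, whereas the submitters' processing notes list FastQC, STAR, featureCounts, edgeR and the builds hg38, GRCm39 and mm39. Which of these made the counts was not settled, so no coordinates of the counted genes are given, and those of the promoter windows are RefSeq's on GRCm38.p6. Symbols came from GENCODE M21 (41203 of 42524 genes), and the smallest gene sum was 2 counts.

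Samples were grouped by genotype, treatment and day. The 16 mice of a day were fitted together as 4 groups in edgeR 4.0.16 (R 4.3.3) with filterByExpr, TMM normalization, glmQLFit and glmQLFTest, two-sided, with Benjamini-Hochberg adjustment over all genes tested and a threshold of 0.05. The difference between days used all 32 mice. SE is the absolute log2 fold change over the root of the F statistic, which is no guide for values near 0, and 95% intervals of a fold change are the normal quantile times it. Ratios of summed counts carry exact conditional binomial (Clopper-Pearson) intervals. Alternatives were no filter, RLE factors, DESeq2 1.42.0, only the groups compared, all mice in one fit, a caudal Hox covariate, a block for the sample number and each mouse left out. The interaction, the fits without libraries of high Alb or low Hox score, and the alternatives of the fit with no filter were added after the data were seen. Only the filtered fit of untreated G93A against WT mice at 155 days was tested on simulated data. The fit with no filter was not. The members and lists were chosen with earlier results of these data known. All 10 genes were named by rule. From each list the genes of smallest p at 155 days were named, while Trac, Ifng, Prf1, Cd79b, Zbtb46, Ubash3a, Icos and the Klr genes were picked with values in view. No processing batch is labelled, so a batch that went with a group could not be told apart from it. The p-values weigh group differences against the spread between these mice only.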

Additional observations from a re-analysis of the deposited data

Results flagged for a closer look

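In 13 of the 77 groups of 4 mice whose levels were not all equal, 1 mouse stood apart from the other 3 by Dixon's test, where 3.85 would be flagged by chance at 5% per group. In 8 of these the others had 0 counts: Cd3e in WT OKN007 replicate 8 of 90 days (0.14 CPM, 3 counts) and WT OKN007 replicate 7 of 155 days (0.0375 CPM, 1 count), Cd3d in WT OKN007 replicate 6 of 90 days (0.0754 CPM, 2 counts), Cd4 in G93A OKN007 replicate 16 of 90 days (0.034 CPM, 1 count), Cd8a in WT OKN007 replicate 5 of 155 days (0.0385 CPM, 1 count), Cd8b1 in WT OKN007 replicate 5 (0.0452 CPM, 1 count) and G93A untreated replicate 9 (0.0778 CPM, 2 counts) of 90 days, and Nkg7 in WT OKN007 replicate 7 of 90 days (0.0839 CPM, 2 counts). In 3 the mouse was listed at 0.0 CPM: Cd3e in G93A untreated replicate 12 of 90 days (others 3 counts each), Cd3g in WT untreated replicate 2 of 155 days (others 4 counts each) and Cd8b1 in G93A OKN007 replicate 15 of 90 days (others 1 count each). Steps of so few counts meet the test easily. Cd8a in WT untreated replicate 3 of 90 days (0.113 CPM, 3 counts against 1 in each other mouse) is of the same kind. Cd3e in WT untreated replicate 4 of 90 days (0.449 CPM, 11 counts against 0, 2 and 0) had the most counts, and that mouse also had the most Icos of its group, 11 counts.

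The genotype difference differed between 155 and 90 days for Cd8a (3.58 on the log2 scale, adjusted p = 0.00328) and for Klri1 (-2.94, adjusted p = 7.85e-05), both by edgeR's quasi-likelihood test of the difference itself among genes past the filter, and both also with no filter (adjusted p = 0.00626 and 6.48e-05). Cd8a passed the filter through the G93A mice of 155 days alone, so its having passed already reflects the difference. All 8 G93A mice of 155 days lay below all 8 WT mice in Klri1.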

How the results depend on the processing

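Across the alternatives, Cd3g, Cd8a and Klri1 kept their direction and their call between genotypes at 155 days in each treatment and in the mean. In the filtered fits their having passed the filter already reflects the difference. In the mean of the fit with no filter, their ranges over single mice left out were 2.15 to 2.45, 3.61 to 4.62 and -3.27 to -2.77. With no filter, the genes called rose from 3 to 5 with OKN007 and to 6 in the mean. In that fit the 6 calls became 3 with the Hox covariate and 3 without the 3 libraries of lowest Hox score, 4 to 7 with single mice left out and 7 with DESeq2, which also called Cd4 (adjusted p = 0.0294). Cd3e kept its call with each mouse left out (adjusted p 0.003 to 0.0443), Nkg7 in 15 of 16 and Cd8b1 in 10 of 16, lost without WT untreated replicates 1 and 3, WT OKN007 replicates 6 and 7, or G93A untreated replicate 10 and OKN007 replicate 14. Cd4 was called without WT untreated replicate 3 or WT OKN007 replicate 8, and Cd3d without WT OKN007 replicate 7. With OKN007, Cd3e was called in 12 and Nkg7 in 10 of 16 such fits.

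Values that changed sign were of genes not called: Cd3g with OKN007 in WT mice of 155 days (-0.16 to 0.37 with single mice left out), Klri1 at 90 days between genotypes (-0.24 to 0.10) and with OKN007 in G93A mice (-0.063 to 0.61), and Gzma between days (-0.31 with the Hox covariate, -0.43 to 0.50 with single mice left out). Cd3g differed between days with the Hox covariate (1.93, adjusted p = 0.0448). Over all genes, the Hox covariate gave 6678 calls in the mean of 155 days against 10211 and 5168 with OKN007 against 7747, and at 90 days the mean had 5 calls, 110 with no filter, 66 with DESeq2, 19 with all mice in one fit. The cause was not tested.

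Within a day the groups share no sample numbers. No paired analysis was possible because of this within a day. Across days same-numbered mice correlated at -0.221 to 0.26 (4 of 16 over 0.1), so they share only a number, and with it as a replicate block 2 genes were called between days, Cd8a (3.70) and Klri1 (-2.92), with 7203 calls over all genes against 7426. Depth limits Nkg7, Cd3d, Cd8b1, Cd4 and Cd3e most, at 24 to 65 reads over 32 mice.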
